A study of Mus musculus with 7 samples.

Results

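The kallikreins (Klk) and the Kazal-type serine protease inhibitors of the Spink family were followed in medullary thymic epithelial cells (mTECs) of mice. The members were all protein-coding genes whose symbol is Klk or Spink followed by a digit, the glandular Klk1b genes included, and there were 38 of them among 55536 genes. They comprise Klk1 and 13 Klk1b genes, the 12 genes Klk4 to Klk15, and 12 Spink genes. The family was chosen by its normalized counts in the Cre-positive against Cre-negative contrast described here, so its fold changes are a description and carry no test.

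Bulk RNA was sequenced from EPCAM-positive mTECs that had been sorted fresh from thymus and lysed for SMART-seq, a method that copies full-length transcripts from few cells. The genotype of 3 libraries was Cre(+) Ikzf1fl/fl Pou2f3-/- (Cre-positive 45, 76 and 80) and that of 4 libraries was Cre(-) Ikzf1fl/fl Pou2f3-/- (Cre-negative 46, 48, 75 and 77). All 7 thus share the floxed alleles of Ikzf1, which encodes the zinc-finger factor Ikaros, and the loss of Pou2f3, the factor that tuft cells need. The comparison asks what Ikaros does to gene expression in mTECs when tuft cells are missing. Neither the Cre driver, nor the floxed exon, nor the age of the mice is given in the sources used here. No label ties each library to its own animal, and p-values therefore reflect differences among libraries that may be partly technical. Values below follow the order of the library numbers just given.

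Kallikreins are secreted serine proteases with trypsin-like or chymotrypsin-like activity, made as inactive precursors and encoded in a tight gene cluster. Klk1 and the Klk1b genes, a branch that expanded in rodents, are known from salivary gland and kidney, and Klk5, Klk7 and their neighbours from the outer layers of skin. Spink proteins carry Kazal domains that occupy the active site of trypsin-like proteases, and several of them hold kallikreins or pancreatic trypsin in check. Medullary thymic epithelium transcribes many genes of other tissues, partly under the control of Aire and partly in cells that resemble those tissues, and displays them to developing T cells.

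Recovered reads ranged from 9815958 to 12599078 per library. Counted over the whole gene, Ikzf1 had 1310.3, 1828.6 and 1677.5 normalized counts in Cre-positive libraries, against 1118.7, 1149.5, 1146.8 and 1219.0 in Cre-negative libraries. Reads from all exons enter that value, so it does not check the deletion of a part of the gene. Pou2f3 lay between 0.0 and 17.8 normalized counts in Cre-positive libraries and between 1.8 and 27.9 in Cre-negative libraries. The mTEC markers Epcam, H2-Aa, Krt5, Krt8, Cd40 and Fezf2 had means from 1851 to 73371 normalized counts in Cre-positive libraries and from 2167 to 71624 in Cre-negative libraries. Of the 8 markers in this list, 2 fell and 1 rose (limma adjusted p under 0.05, against 9.11% and 4.66% of all genes tested). Cd80, a costimulatory ligand of mature mTECs, fell to 317 ± 58.0 normalized counts in Cre-positive libraries, against 1170 ± 266 in Cre-negative libraries (SD, n = 3 and 4; limma adjusted p = 0.000251), and passed under every alternative. Krt5 rose (log2 fold change 0.59, limma adjusted p = 0.0475), a call lost without any 1 library other than Cre-negative 48. That call was also lost with edgeR (0.0615), with no filter on low values (0.0604), with library total scaling (0.197) and with a term for the number range (0.0523). Aire fell to 2967 ± 308 normalized counts in Cre-positive libraries, against 4417 ± 767 in Cre-negative libraries (SD, n = 3 and 4; limma adjusted p = 0.0395), a call lost without Cre-positive 45 (0.104) or 76 (0.134) or Cre-negative 75 (0.0931) or 77 (0.0942). Genes detected with 10 reads or more numbered 17453 ± 486 in Cre-positive libraries and 20035 ± 453 in Cre-negative libraries (SD, n = 3 and 4), without overlap, and its part in the results below was not tested.

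The 26 kallikrein genes lie on the plus strand of chromosome 7 within 539.2 kb, from 43690418 to 44229618 (GRCm38). RefSeq promoters (250 bases before to 50 after the annotated start, GRCm38.p6) were matched for 27 members, namely the 26 kallikreins and Spink2. The sequences below show how alike promoters of the glandular branch are, the window of Klk1 being shifted upstream against the letters it shares with the others. They also show how unlike these are those of 2 other members whose level was lower in Cre-positive libraries. All the sequences were chosen after values had been seen. Each is read 5′ to 3′ on the strand of its gene, and capitals mark TGGGAA, the core letters bound by Ikaros, or TTCCCA, its reverse complement. The Klk1b26, Klk1b9, Klk1b11 and Klk1 windows are chr7:44012428-44012727, chr7:43975811-43976110, chr7:43995627-43995926 and chr7:44225110-44225409. The Klk13 window is chr7:43712317-43712616, and that of Spink2 is chr5:77211422-77211721 on the minus strand.
Klk1b26: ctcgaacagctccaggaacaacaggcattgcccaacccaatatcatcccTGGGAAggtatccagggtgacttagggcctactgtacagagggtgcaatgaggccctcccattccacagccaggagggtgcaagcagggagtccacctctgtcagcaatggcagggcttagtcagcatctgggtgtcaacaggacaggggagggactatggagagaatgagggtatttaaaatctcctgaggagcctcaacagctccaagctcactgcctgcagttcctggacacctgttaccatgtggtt
Klk1b9: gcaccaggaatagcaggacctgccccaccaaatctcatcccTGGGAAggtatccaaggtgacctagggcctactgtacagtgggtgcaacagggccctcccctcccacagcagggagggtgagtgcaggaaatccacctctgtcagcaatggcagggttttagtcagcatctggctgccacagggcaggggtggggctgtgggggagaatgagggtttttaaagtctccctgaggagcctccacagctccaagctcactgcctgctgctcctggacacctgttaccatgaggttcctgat
Klk1b11: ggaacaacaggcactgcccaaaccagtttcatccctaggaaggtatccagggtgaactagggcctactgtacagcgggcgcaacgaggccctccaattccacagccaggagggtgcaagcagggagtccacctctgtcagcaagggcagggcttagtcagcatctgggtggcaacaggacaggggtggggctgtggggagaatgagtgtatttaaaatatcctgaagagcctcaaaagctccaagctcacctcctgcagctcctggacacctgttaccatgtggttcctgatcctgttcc
Klk1: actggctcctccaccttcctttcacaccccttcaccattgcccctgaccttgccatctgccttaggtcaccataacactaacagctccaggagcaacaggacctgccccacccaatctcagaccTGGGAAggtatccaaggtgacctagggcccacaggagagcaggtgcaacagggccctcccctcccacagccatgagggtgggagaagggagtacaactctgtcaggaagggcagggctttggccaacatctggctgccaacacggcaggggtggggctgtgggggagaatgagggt
Klk13: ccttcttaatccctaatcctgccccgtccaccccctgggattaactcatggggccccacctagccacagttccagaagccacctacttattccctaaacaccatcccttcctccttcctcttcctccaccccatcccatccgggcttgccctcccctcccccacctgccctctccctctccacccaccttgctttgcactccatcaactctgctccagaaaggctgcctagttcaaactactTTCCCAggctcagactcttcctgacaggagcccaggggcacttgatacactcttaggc
Spink2: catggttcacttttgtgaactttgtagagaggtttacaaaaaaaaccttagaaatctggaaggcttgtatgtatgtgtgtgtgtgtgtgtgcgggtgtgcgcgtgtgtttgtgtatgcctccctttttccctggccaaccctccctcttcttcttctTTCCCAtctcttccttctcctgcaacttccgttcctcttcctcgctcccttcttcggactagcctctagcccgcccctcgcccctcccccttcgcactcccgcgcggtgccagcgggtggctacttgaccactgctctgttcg

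The start that RefSeq gives for Klk1b26 lies 510 bp downstream of the start in the deposited table. Other RefSeq starts lay downstream for Klk1b5 (529 bp), Klk1b16 (523), Klk5 (298), Klk12 (203) and Klk6 (45). Those of Klk15 (-2065 bp) and Klk1b21 (-36) lay upstream. These windows were kept in the shares of letters below, so the shares rest partly on windows away from the table's start. Among the 10 Klk1 and Klk1b promoters whose RefSeq start lay within 20 bp of the table's start, identity after pairwise global alignment had a median of 79.3% over 45 pairs (range 53 to 87%). The low end came from Klk1, whose pairs ran from 53% with Klk1b8 to 67.67% with Klk1b3. The Klk1 window is shifted upstream, so part of it has no counterpart in the other windows. These values were not corrected for the shift and do not measure how alike the shared letters are. The lowest glandular pair without Klk1 had 70%. Among 8 such promoters of Klk4 to Klk15 the median was 53.3% over 28 pairs (range 47.67 to 57%). TGGGAA, searched on both strands, occurred in 18 of the 27 member promoters (66.7%), against 25.6% of all 32851 promoters of the same length. It was found in 13 of 14 Klk1 and Klk1b promoters, in 4 of 12 promoters of Klk4 to Klk15 (Klk6, Klk9, Klk11 and Klk13), and in that of Spink2. The glandular promoters are copies of one another and do not count as separate occurrences. The glandular promoter without the letters is that of Klk1b11, and among members with them are Klk1, whose log2 fold change was the smallest in size of its branch, and Klk1b26, whose change was among the largest. TATAAA occurred in 3.70% of member promoters and 13.6% of all promoters, AGAACA, part of the steroid receptor element, in 18.5% and 19.0%, and the AP-1 letters TGANTCA in 0% and 7.81%, each searched on both strands. The only member window with TATAAA was that of Klk15.

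After a filter on low values (a 7-library mean of 5 normalized counts or more), 37 of the 38 members were tested along with 22878 genes in all. The log2 fold change, on the log2(normalized count + 1) scale and taken as Cre-positive over Cre-negative throughout, was below 0 for all 37 members, against 54.7% of all genes tested. With limma, 26 members passed an adjusted p under 0.05, all of them lower in Cre-positive libraries, and 0 were higher. The background was 13.8% of all genes called in either direction, 9.11% lower and 4.66% higher. Nothing is read from this count, since the contrast was used to choose the family. The median log2 fold change was -2.69 over the members and -0.10 over all genes tested. With edgeR on recovered reads the median of the members was -2.19, and sizes differed most for members uneven across libraries, such as Spink12 (-5.13 with limma, -3.52 with edgeR), Klk1b5 (-3.32 and -2.14), Klk1b27 (-2.49 and -1.39) and Klk11 (-2.04 and -0.60).

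**Figure D1:**
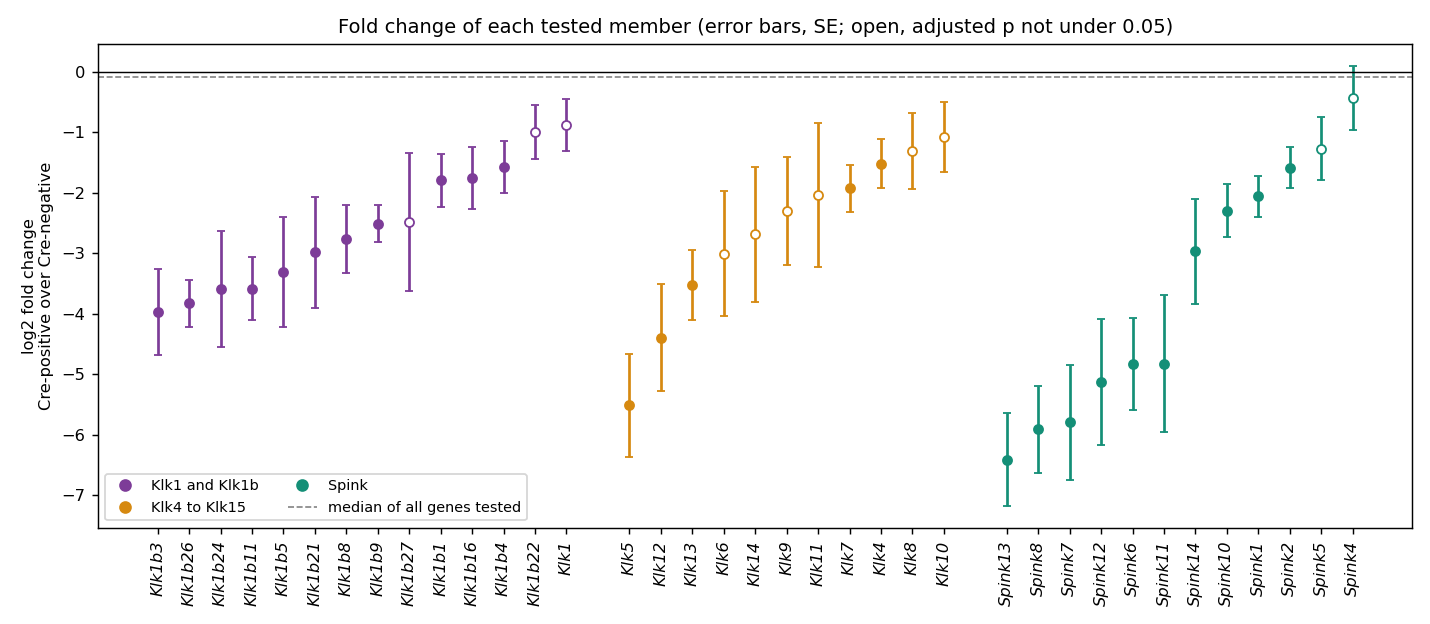
The log2 fold change (Cre-positive over Cre-negative, on the log2(normalized count + 1) scale) of the 37 tested members is plotted with its SE from limma, sorted within each branch, with filled points for an adjusted p under 0.05 and open points otherwise; the dashed line is the median of all genes tested. All points lie below 0, from -6.41 for Spink13 to -0.44 for Spink4.

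The groups did not overlap for 24 of the 37 members, all lower in Cre-positive libraries, where 14.5% of all genes tested were lower without overlap. At least 1 read of each of the 38 members was present in every Cre-negative library. Every Cre-positive library had reads of 32 members, and 14 members had no read in at least 1 of these libraries. Within libraries numbered 45 to 48, and within those numbered 75 to 80, a division in the labels whose meaning is not given, 35 members were lower in Cre-positive libraries in both ranges. The exceptions among the 37 tested members were Klk11 and Spink4, which went opposite ways. As these are bulk samples, fewer cells that transcribe a member and less RNA of it per cell cannot be told apart.

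**Figure D2:**
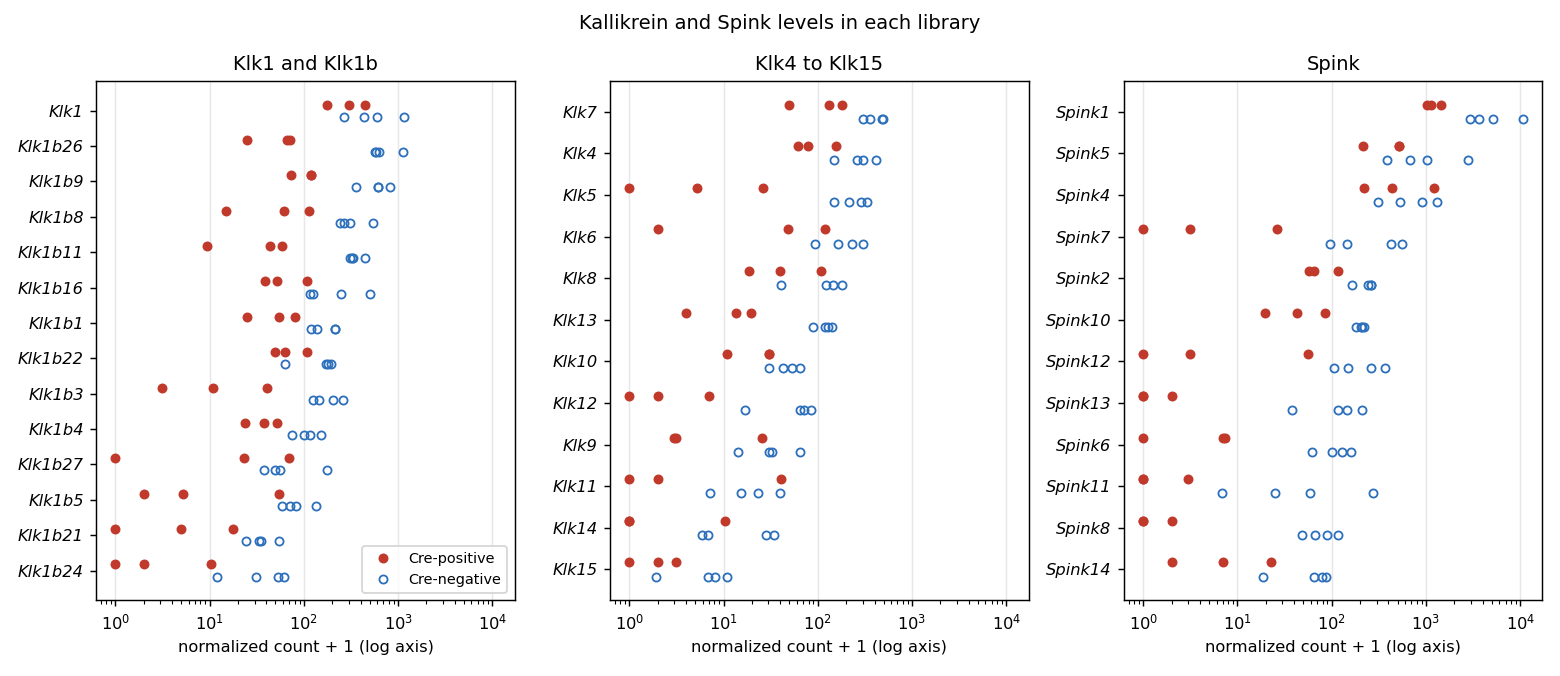
Normalized counts plus 1 (log axis) of each member are shown in the 3 Cre-positive libraries (filled, upper row of each gene) and the 4 Cre-negative libraries (open, lower row), in 1 panel per branch with the highest mean at the top. Klk1, Spink5 and Spink4 show mixed groups near the top of their panels, while several Spink genes lie near 1 in Cre-positive libraries.

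Summed over the 26 kallikreins, the level was 1266 ± 64.2 normalized counts in Cre-positive libraries and 5278 ± 980 in Cre-negative libraries (SD, n = 3 and 4). The 12 Spink genes summed to 2397 ± 506 normalized counts in Cre-positive libraries and 9038 ± 4978 in Cre-negative libraries. The groups did not overlap in either sum. Together the members took 0.0311 ± 0.00343% of the reads in Cre-positive libraries and 0.141 ± 0.0640% in Cre-negative libraries.

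**Figure D3:**
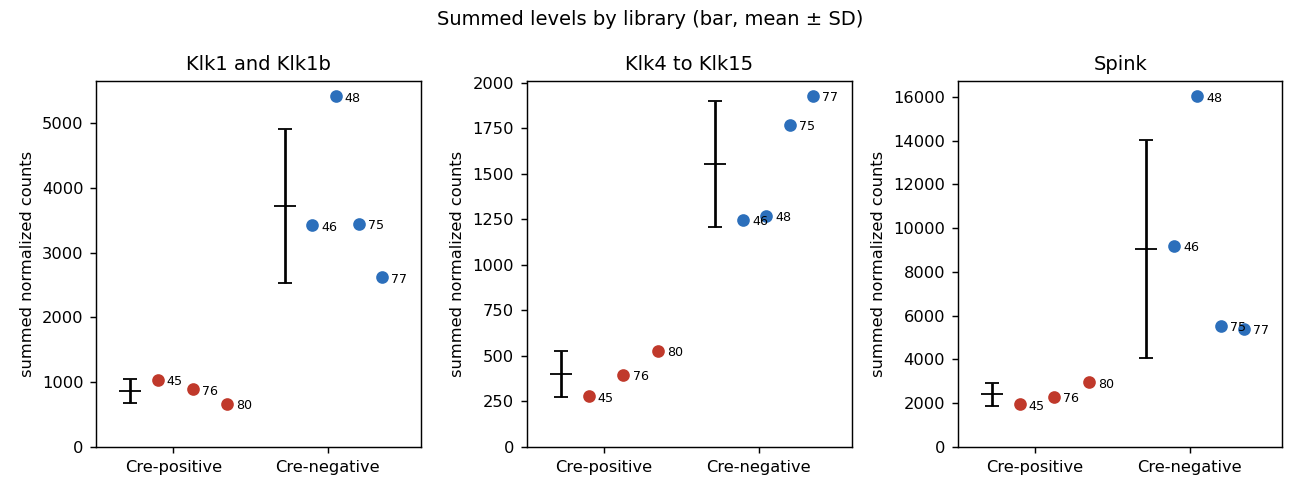
Summed normalized counts of Klk1 with the Klk1b genes, of Klk4 to Klk15 and of the Spink genes are shown for each library, Cre-positive to the left and Cre-negative to the right, with the mean ± SD as a black bar and the library number beside each point. All 3 Cre-positive sums lie below every Cre-negative one in each panel, and Cre-negative 48 has the highest glandular and Spink sums.

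Klk1, true tissue kallikrein, releases kinins from kininogen and was the glandular gene that differed least. It had 299.9, 444.6 and 175.4 normalized counts in Cre-positive libraries, against 593.3, 1160.3, 433.3 and 265.7 in Cre-negative libraries. The groups overlapped, and the log2 fold change was -0.89 (SE 0.43). Klk1b26, known in mice as a binding protein of epidermal growth factor (EGF) and an enzyme that can cut prorenin, had 64.8, 70.1 and 23.9 normalized counts in Cre-positive libraries, against 571.5, 1125.9, 577.4 and 627.6 in Cre-negative libraries. All Cre-positive values were far below all Cre-negative ones, with a log2 fold change of -3.83 (SE 0.38). Klk1b26 made up 5.90 ± 2.15% of the glandular sum in Cre-positive libraries and 19.6 ± 3.51% in Cre-negative libraries, whereas Klk1 made up 35 ± 12.9% and 15.4 ± 5.03% in the same order (SD, n = 3 and 4). The ranges of both shares did not overlap.

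Klk1b9, another EGF-binding protein of the mouse, had 117.0, 119.2 and 71.6 normalized counts in Cre-positive libraries, against 615.9, 823.5, 606.3 and 359.8 in Cre-negative libraries. The third EGF-binding kallikrein, Klk1b22, had 62.7, 48.1 and 105.9 normalized counts in Cre-positive libraries, against 169.3, 178.3, 192.8 and 62.0 in Cre-negative libraries. Klk1b9 was lower without overlap (log2 fold change -2.52, SE 0.31), while Klk1b22 overlapped through the low value of Cre-negative 77 (-1.0, SE 0.45). Klk1b3 had 2.1, 10.0 and 39.4 normalized counts in Cre-positive libraries, against 201.1, 259.1, 143.2 and 123.0 in Cre-negative libraries. Klk1b4 had 36.6, 23.0 and 50.9 normalized counts in Cre-positive libraries, against 100.6, 151.7, 114.4 and 73.4 in Cre-negative libraries. Both genes were lower without overlap, Klk1b3 by a log2 fold change of -3.98 (SE 0.71), the largest of the branch, and Klk1b4 by -1.58 (SE 0.43). Klk1b16, the mouse gamma-renin, had 107.6, 38.1 and 50.9 normalized counts in Cre-positive libraries, against 245.5, 497.4, 115.3 and 123.0 in Cre-negative libraries, and Cre-positive 45 lay close to the lower Cre-negative values.

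The other glandular genes are likewise named without a role. Klk1b11 had 57.5, 43.1 and 8.3 normalized counts in Cre-positive libraries, against 321.8, 440.3, 307.2 and 327.7 in Cre-negative libraries, a log2 fold change of -3.59 (SE 0.52). Klk1b8 had 112.9, 14.0 and 60.2 normalized counts in Cre-positive libraries, against 305.0, 239.4, 545.0 and 262.6 in Cre-negative libraries. In both genes the groups stood apart. Klk1b1 had 79.4, 54.1 and 23.9 normalized counts in Cre-positive libraries, against 119.0, 214.7, 136.0 and 215.0 in Cre-negative libraries, also without overlap. Klk1b5 had 4.2, 1.0 and 52.9 normalized counts in Cre-positive libraries, against 57.8, 69.9, 132.4 and 80.6 in Cre-negative libraries. Cre-positive 80 thus came close to the lowest Cre-negative value for Klk1b5, while the other two were almost without it. Klk1b27 had 69.0, 22.0 and 0.0 normalized counts in Cre-positive libraries, against 54.5, 176.3, 48.6 and 37.2 in Cre-negative libraries, and the groups overlapped through Cre-positive 45. Klk1b21 had 16.7, 4.0 and 0.0 normalized counts in Cre-positive libraries, against 53.6, 23.6, 34.2 and 32.1 in Cre-negative libraries. Klk1b24 had 9.4, 0.0 and 1.0 normalized counts in Cre-positive libraries, against 10.9, 52.2, 60.4 and 30.0 in Cre-negative libraries, so both low genes were lower without overlap, Klk1b24 narrowly.

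Per kb of exon, the highest glandular levels in Cre-negative libraries were those of Klk1b9 (691 normalized counts per kb), Klk1 (569) and Klk1b26 (524). The corresponding levels in Cre-positive libraries were 118 for Klk1b9, 285 for Klk1 and 38.2 for Klk1b26, so that Klk1 stood highest there. Of the 14 glandular genes, 11 passed the threshold, all lower, against 9.11% of all genes tested. In 11 the groups did not overlap, against 14.5% of all genes tested that were lower without overlap. The median log2 fold change was -2.64. The calls of Klk1b5, Klk1b21 and Klk1b24 were lost with edgeR (adjusted p from 0.0668 to 0.158), and that of Klk1b5 also with DESeq2 (0.0647). Each of the 14 shares between 10.1 and 33.9% of its 50-base stretches with other genes of GENCODE M21, so reads could have been divided between copies or dropped, and single values in this branch are uncertain. Klk1b8, Klk1b1 and Klk1b9 also overlap the antisense gene Gm44756, and Klk1 overlaps the pseudogene Gm10109. Gm44756 had at most 2.0 normalized counts in Cre-positive libraries and 11.7 in Cre-negative libraries, and Gm10109 at most 2.0 and 20.1 in the same order.

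**Figure D4:**
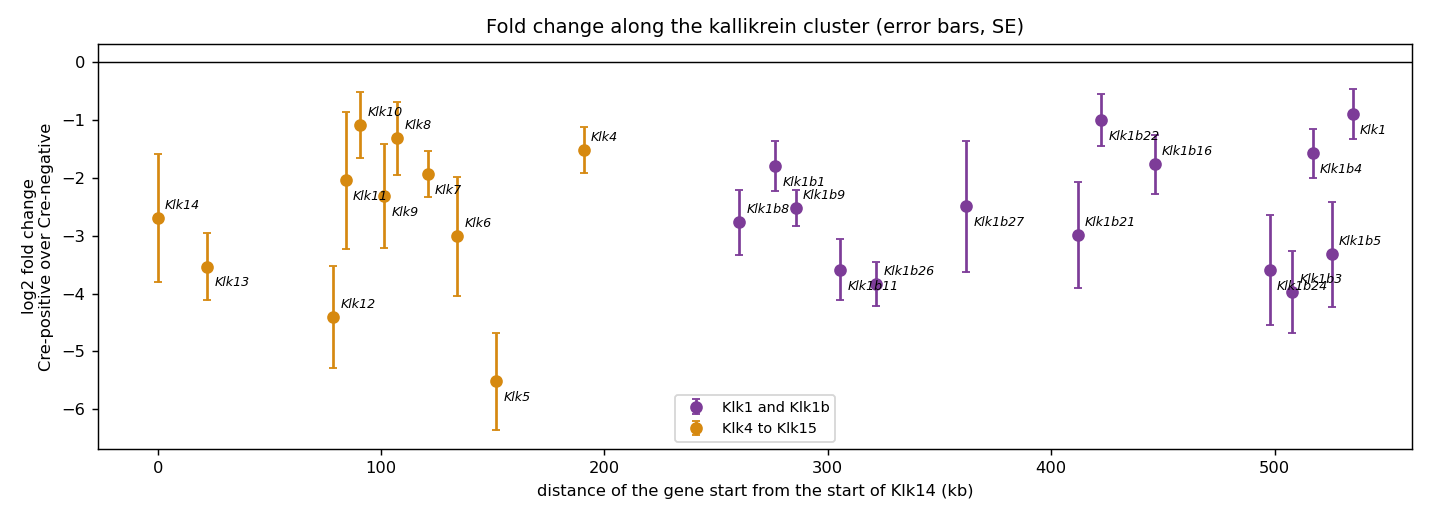
The log2 fold change (Cre-positive over Cre-negative, with its SE) of the 25 tested kallikreins is plotted against the distance of the gene start from that of Klk14 in kb. All genes of the cluster lie below 0, from -5.52 for Klk5 to -0.89 for Klk1; differences between neighbours were not tested.

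Klk5 and Klk7 are the trypsin-like and chymotrypsin-like proteases that cut the junctions between the outermost skin cells. Klk5 had 0.0, 25 and 4.2 normalized counts in Cre-positive libraries, against 147.5, 215.7, 332.4 and 285.4 in Cre-negative libraries. Klk7 had 48.1, 179.3 and 129.8 normalized counts in Cre-positive libraries, against 480.2, 300.4, 360.3 and 492.1 in Cre-negative libraries. Neither gene overlapped between groups, and Klk5 had the largest log2 fold change among all kallikreins (-5.52, SE 0.85), while that of Klk7 was -1.93 (SE 0.39). Klk13, found in oral and oesophageal epithelium, had 12.5, 3.0 and 18.7 normalized counts in Cre-positive libraries, against 119.0, 87.7, 142.3 and 126.1 in Cre-negative libraries, and was lower without overlap (-3.53, SE 0.58). Klk12 had 0.0, 6.0 and 1.0 normalized counts in Cre-positive libraries, against 64.5, 15.8, 82.9 and 71.3 in Cre-negative libraries, again without overlap (-4.40, SE 0.88).

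Klk4, which degrades enamel matrix in developing teeth, had 78.4, 61.1 and 156.7 normalized counts in Cre-positive libraries, against 149.2, 298.5, 259.4 and 412.5 in Cre-negative libraries. Its groups overlapped between Cre-positive 80 and Cre-negative 46, with a log2 fold change of -1.52 (SE 0.40). Klk6, a protease of the central nervous system, had 47.0, 1.0 and 117.3 normalized counts in Cre-positive libraries, against 164.3, 92.6, 229.7 and 298.8 in Cre-negative libraries. Klk8, also called neuropsin, had 17.8, 106.2 and 38.4 normalized counts in Cre-positive libraries, against 39.4, 121.2, 178.4 and 145.8 in Cre-negative libraries. In Klk6 and Klk8 a single Cre-positive library, 80 and 76 in turn, reached into the Cre-negative range. The log2 fold change of Klk6, -3.01 (SE 1.03), rested on Cre-positive 76 and was -1.26 without that library, -4.21 without Cre-positive 80 and -1.84 with edgeR. The remaining Klk9, Klk10, Klk11, Klk14 and Klk15 had at most 39.7 normalized counts in any Cre-positive library and at most 63.1 in any Cre-negative library, and in all 5 the groups overlapped or met. Klk11 differed by 0.73 on the log2 scale within libraries 45 to 48 and by -3.20 within libraries 75 to 80. Klk15 had 3 reads in Cre-positive libraries and 25 in Cre-negative libraries, a ratio of 0.176 with a 95% counting interval of 0.0341 to 0.577.

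Of Klk4 to Klk15, 5 of the 11 tested genes passed the threshold, all lower, against 9.11% of all genes tested. The groups did not overlap for 4, against 14.5% of all genes tested that were lower without overlap. The median log2 fold change was -2.31. Klk4 to Klk15 summed to 401 ± 126 normalized counts in Cre-positive libraries and 1553 ± 346 in Cre-negative libraries (SD, n = 3 and 4). Klk8 to Klk14 overlap the minus-strand gene 2310002F09Rik, which had 50.2, 3.0 and 6.2 normalized counts in Cre-positive libraries and between 10.8 and 40.4 in Cre-negative libraries. Whether counting used strand is not known from the sources used here, so reads of these overlapping genes cannot be told apart. Klk4, Klk5, Klk6 and Klk7 are free of both overlaps and shared stretches.

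Spink1, the pancreatic secretory trypsin inhibitor, was the most abundant member in both groups, by normalized count and per kb of exon. It had 1018.8, 1119.6 and 1428.3 normalized counts in Cre-positive libraries, against 5175.6, 10821.2, 3610.6 and 2907.3 in Cre-negative libraries. The groups were far apart, with a log2 fold change of -2.06 (SE 0.34), and Cre-negative 48 was the highest library. Spink1 made up 49.8 ± 2.02% of the Spink sum in Cre-positive libraries and 60.7 ± 6.72% in Cre-negative libraries (SD, n = 3 and 4). Without Spink1, the other 11 Spink genes summed to 1209 ± 294 normalized counts in Cre-positive libraries and 3409 ± 1490 in Cre-negative libraries.

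Spink5 encodes LEKTI, the inhibitor of KLK5 and KLK7 in skin whose loss causes Netherton syndrome in humans. It had 511.0, 515.7 and 215.9 normalized counts in Cre-positive libraries, against 1032.4, 2765.9, 388.3 and 681.3 in Cre-negative libraries. The groups overlapped through Cre-negative 75, and the log2 fold change was -1.28 (SE 0.52). Spink6, which inhibits kallikreins in human skin, had 6.3, 6.0 and 0.0 normalized counts in Cre-positive libraries, against 158.4, 61.1, 99.1 and 126.1 in Cre-negative libraries, with no overlap and a log2 fold change of -4.84 (SE 0.76). Spink7, an inhibitor of the oesophageal lining in humans, had 25.1, 0.0 and 2.1 normalized counts in Cre-positive libraries, against 426.5, 143.8, 95.5 and 555.2 in Cre-negative libraries, and its groups were also separate (-5.79, SE 0.95).

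Spink4, a product of intestinal goblet cells, was the member with the smallest difference. It had 217.3, 440.6 and 1213.5 normalized counts in Cre-positive libraries, against 900.0, 1323.8, 527.9 and 307.1 in Cre-negative libraries. The groups overlapped, the log2 fold change was -0.44 (SE 0.53), and the sign was not stable: it ranged from -1.10 to 0.14 when libraries were left out in turn. Within libraries 45 to 48 Spink4 differed by -2.32 on the log2 scale, and within libraries 75 to 80 by 0.86. Its share of the Spink sum was 23.8 ± 15.5% in Cre-positive libraries and 8.32 ± 1.88% in Cre-negative libraries (SD, n = 3 and 4), with Cre-positive 80 the highest.

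Spink2, an acrosin and trypsin inhibitor of the testis, had 56.4, 116.2 and 64.4 normalized counts in Cre-positive libraries, against 260.6, 241.3, 263.0 and 163.4 in Cre-negative libraries. All Cre-positive values were lower (log2 fold change -1.59, SE 0.34). Spink8, known from the epididymis in mice, and Spink13, known from the epididymis in rats, were nearly absent from Cre-positive libraries. Spink8 had 0.0, 0.0 and 1.0 normalized counts in Cre-positive libraries, against 114.8, 47.3, 88.3 and 65.1 in Cre-negative libraries. Spink13 had 0.0, 0.0 and 1.0 normalized counts in Cre-positive libraries, against 207.8, 114.3, 36.9 and 144.7 in Cre-negative libraries. The ratio of Cre-positive to Cre-negative levels was 0.00424 for Spink8 (95% counting interval 0.000107 to 0.0238, from 1 and 346 reads) and 0.00269 for Spink13 (6.81e-05 to 0.0151, from 1 and 545 reads). These intervals cover counting error only.

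The remaining Spink genes are named without a role. Spink11 had 0.0, 2.0 and 0.0 normalized counts in Cre-positive libraries, against 274.9, 5.9, 24.3 and 57.9 in Cre-negative libraries. Its ratio was 0.00704 (95% counting interval 0.00085 to 0.0256, from 2 and 417 reads), and the Cre-negative libraries differed widely among themselves. Spink12 had 55.4, 0.0 and 2.1 normalized counts in Cre-positive libraries, against 363.7, 257.1, 146.8 and 104.4 in Cre-negative libraries. Spink10 had 41.8, 84.1 and 18.7 normalized counts in Cre-positive libraries, against 204.5, 220.6, 181.1 and 209.9 in Cre-negative libraries. Both stood apart between groups, and Spink10 was nearly even across Cre-negative libraries. Spink14 had 21.9, 6.0 and 1.0 normalized counts in Cre-positive libraries, against 86.3, 17.7, 64.0 and 77.5 in Cre-negative libraries, and overlapped through Cre-positive 45 and Cre-negative 48.

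Of the 12 Spink genes, 10 passed the threshold, all lower, against 9.11% of all genes tested. In 9 the groups did not overlap, against 14.5% of all genes tested that were lower without overlap. The median log2 fold change was -3.90. The call of Spink14 was lost with edgeR (adjusted p = 0.0703), and that of Spink12 with DESeq2 (0.0950). Of the 12 Spink genes, 9 lie on chromosome 18, and the others are Spink2 on chromosome 5, Spink4 on chromosome 4 and Spink8 on chromosome 9. The gene model of Spink10 overlaps those of Spink7 and Spink13 on the opposite strand, so these 3 are not independent of one another if the counting ignored strand. Among the 13 members of both families with neither an overlapping gene nor more than 5% shared 50-base stretches, 10 passed the threshold, all lower. The share over all genes tested was 9.11% lower. The median log2 fold change of these 13 members was -2.97.

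The proteases that Spink inhibitors bind were measured as a list of their own, which like the lists that follow was drawn up with results of these data known. Of its 7 tested genes, 5 fell and 0 rose (limma adjusted p under 0.05, against 9.11% and 4.66% of all genes), and the median log2 fold change was -3.35. Prss1, a pancreatic trypsinogen, fell to 0.0, 21 and 0.0 normalized counts in Cre-positive libraries, against 124.0, 184.2, 327.9 and 209.9 in Cre-negative libraries (adjusted p = 0.00123). Cela3b, a pancreatic elastase, fell to 0.0, 2.0 and 12.5 normalized counts in Cre-positive libraries, against 105.6, 137.9, 100 and 186.1 in Cre-negative libraries (adjusted p = 0.00108). The elastase Cela1 fell by 3.76 on the log2 scale (adjusted p = 0.0150, but 0.0648 with edgeR). The chymotrypsinogen Ctrb1 fell by 2.40 (adjusted p = 0.0468), a call lost with edgeR (0.0864), with a pseudocount of 0.5 (0.0522), with a term for the number range (0.0573), and without any 1 of Cre-positive 76 (0.0769) or Cre-negative 46 (0.110), 48 (0.106), 75 (0.103) and 77 (0.0549).

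Among 17 tested substrates and signalling partners of kallikreins, 8 fell and 0 rose, against 9.11% and 4.66% of all genes tested. Their median log2 fold change was -1.92. The kininogens Kng1 and Kng2, from which kallikreins release kinins, both fell, with log2 fold changes of -4.45 (adjusted p = 0.00101) and -4.49 (adjusted p = 0.00146). Kng1 had 1.0, 7.0 and 3.1 normalized counts in Cre-positive libraries, against 148.3, 66.0, 69.4 and 83.7 in Cre-negative libraries. Camp, the cathelicidin precursor that skin kallikreins process, fell to 101.4, 228.3 and 418.3 normalized counts in Cre-positive libraries, against 2022.1, 1184.0, 1028.8 and 733.0 in Cre-negative libraries (adjusted p = 0.00243). Amelx, the enamel protein that Klk4 removes, fell by 5.51 on the log2 scale in limma (adjusted p = 0.0111) but did not pass with edgeR (0.136) or DESeq2 (0.343). The other 4 that fell were Dsg1a, Dsg1b, Flg and F2rl1, which encode junction proteins, filaggrin and a receptor that kallikreins can activate. The calls of Dsg1b (adjusted p up to 0.107) and Flg (up to 0.0651) were lost without Cre-positive 76 or 80 or Cre-negative 46 or 48, and that of Dsg1b also without Cre-negative 75 or 77 and with edgeR (0.109).

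Of 14 tested membrane-bound serine proteases, 2 fell and 0 rose, a share of 14.3% near the background of 13.8%. Tmprss11d fell by 3.26 on the log2 scale (adjusted p = 0.0158), and Tmprss11a fell by 2.87 (adjusted p = 0.0157, but 0.0559 without Cre-negative 77). A list of 15 tested genes held 13 Kunitz and WAP inhibitors, other families that block secreted serine proteases. It also held Pi15 and Pi16, which have neither domain. Of its genes, 6 fell and 2 rose, against 9.11% and 4.66% of all genes tested. Without Pi15 and Pi16, a split made after values were seen, 5 of 13 fell and 2 rose. Slpi, an inhibitor of elastase and of KLK7 in humans, fell to 77.3, 56.1 and 440.1 normalized counts in Cre-positive libraries, against 1340.0, 671.8, 1883.7 and 1287.2 in Cre-negative libraries (adjusted p = 0.00237). Wfdc21, Wfdc3 and Wfdc15b fell with log2 fold changes of -2.62 (adjusted p = 0.000134), -3.33 (0.0263) and -4.23 (0.0175). The call of Wfdc3 was lost with edgeR (adjusted p = 0.0838) and without Cre-positive 45 (0.0588) or any 1 Cre-negative library (0.0518 to 0.0741). That of Wfdc15b was lost with edgeR (0.0947) and DESeq2 (0.174), and without Cre-positive 76 (0.0556) or Cre-negative 48 (0.0540) or 75 (0.0523). Of all 8 calls in the list, 3 (Slpi, Wfdc21 and Spint2) held under every alternative. The 2 that rose, named after their values were seen, were Spint2, an inhibitor of hepsin-like proteases (log2 fold change 0.94, adjusted p = 0.00445), and Wfdc18 (0.73, adjusted p = 0.0347). The call of Wfdc18 was lost with library total scaling (0.110) and without Cre-positive 45 (0.0849) or 76 (0.155) or Cre-negative 46 (0.0670), 75 (0.0685) or 77 (0.111).

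Of 14 other tested proteins with a Kazal-like domain, 3 fell and 1 rose, against 9.11% and 4.66% of all genes tested. Their median log2 fold change was -0.47. Fstl5, Spock2 and Sparc fell with log2 fold changes of -4.28 (adjusted p = 0.000287), -1.38 (0.0235) and -1.25 (0.0176), whereas Spock3 rose with 1.24 (0.00410). The Sparc call was lost without Cre-positive 45 (adjusted p = 0.0693), and that of Spock2 without Cre-positive 80 (0.0691) or Cre-negative 48 (0.0598) or 77 (0.0686).

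**Figure D5:**
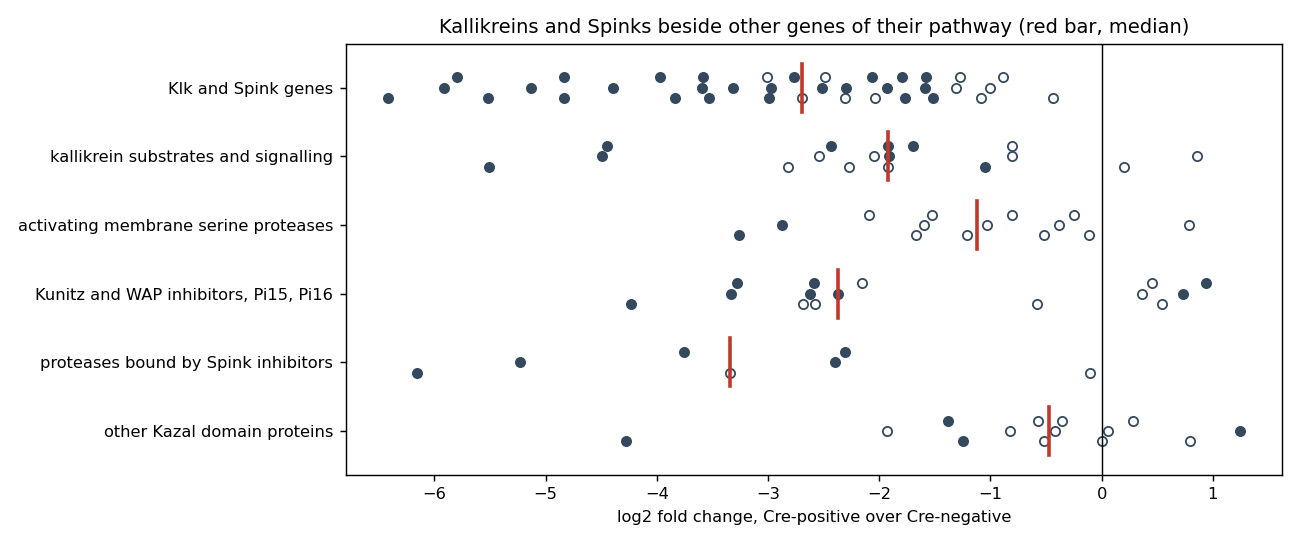
Each point is the log2 fold change (Cre-positive over Cre-negative) of 1 tested gene among the Klk and Spink genes and the 5 pathway lists; filled points have an adjusted p under 0.05, open points do not, and red bars are medians. The medians run from -3.35 for the proteases bound by Spink inhibitors to -0.47 for the other Kazal domain proteins, and points above 0 occur in 4 of the lists but not among the Klk and Spink genes.

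Markers of cells known to transcribe these families elsewhere fell in part, and fewer calls held under every alternative. Of 10 secretory and salivary gland markers, 5 fell and 0 rose (against 9.11% and 4.66% of all genes), and their summed level ranged from 1452 to 2621 normalized counts in Cre-positive libraries and from 3481 to 5443 in Cre-negative libraries. Ltf and Scgb1a1 passed under every alternative, while the calls of Bpifb1 (adjusted p up to 0.0936), Dcpp1 (up to 0.0656, and 0.0762 with DESeq2) and Amy1 (up to 0.0571) were lost when single libraries were left out. Of 12 keratinocyte markers, 5 fell and 0 rose, with sums from 3034 to 6269 normalized counts in Cre-positive libraries and from 4361 to 8507 in Cre-negative libraries, which overlap. Krt77, Ivl and Grhl3 passed under every alternative. The call of Krt1 was lost with edgeR (0.0930), with a pseudocount of 0.5 (0.0547) and with a term for the number range (0.0573). It was also lost in 5 of the 7 fits that left out 1 library (up to 0.152). The Grhl1 call was lost without Cre-negative 46 (0.0514). Krt10 had a log2 fold change of 0.24 and Krtdap one of -0.41, and neither passed. None of the markers was at 0 in all libraries, and their part in the kallikrein and Spink results was not tested.

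Among markers of other cells the sort could hold, 0 of 8 thymocyte markers passed in either direction, against 13.8% of all genes tested. The only B cell marker of 6 to pass with limma was Pax5, which fell (adjusted p = 0.0220), a call lost without Cre-positive 76 (0.0617) or Cre-negative 48 (0.0702) or 75 (0.0633). Cd79b, another of these markers, went the other way, with a log2 fold change of 1.04. It did not pass with limma (adjusted p = 0.0522) but was higher with edgeR (0.0484) and DESeq2 (0.0159). Of 7 myeloid markers, Adgre1 fell (log2 fold change -2.91, adjusted p = 0.000819) and Lyz2 rose (0.66, adjusted p = 0.0328). The Lyz2 call was lost with library total scaling (0.0929) and with single libraries left out (up to 0.129). The myeloid sums ran from 7409 to 11406 normalized counts in Cre-positive libraries and from 5197 to 6941 in Cre-negative libraries. Nearly all of them was Lyz2, with means of 8367 in Cre-positive libraries and 5180 in Cre-negative libraries. The other 6 myeloid markers had log2 fold changes below 0. Of 6 fibroblast and endothelial markers, Col3a1 fell (-3.94, adjusted p = 0.00350), as did Col1a1 (-2.63, adjusted p = 0.0330, but 0.143 with edgeR and 0.209 with DESeq2). The Col1a1 call was also lost without Cre-positive 45 (0.0775) or 80 (0.0946) or Cre-negative 46 (0.0628), 48 (0.0972) or 77 (0.0843). The sums of these markers ran from 361 to 650 normalized counts in Cre-positive libraries and from 629 to 935 in Cre-negative libraries. Of 6 cortical epithelial markers, Foxn1 fell (-1.02, adjusted p = 0.00236) and Ctsl rose (1.46, adjusted p = 0.000358). The sums ran from 13243 to 19284 normalized counts in Cre-positive libraries and from 6628 to 10480 in Cre-negative libraries. Most of these sums was Ctsl, with means of 12952 in Cre-positive libraries and 4664 in Cre-negative libraries. The other 5 cortical markers had log2 fold changes below 0. The part of these cells in the kallikrein and Spink results was not tested.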

How the data were processed

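A single table with 55536 genes was deposited. Of upstream tools and builds, the submitters' processing notes name STAR 2.7.9a, DESeq2 and GRCm39; how reads were counted, and with which strandedness, is not given in the sources used here. Coordinates in the deposited table equal those of GENCODE M21 on GRCm38 for 95.2% of 52489 shared genes, and for 32 members, so positions are on GRCm38. Per the file headers, the authors' normalized counts are gene counts divided by a size factor per sample, a signal rounded to 1 decimal. The deposited table also holds the authors' stabilized log2 values, log2 fold change and linear fold (ratio), both Cre-negative over Cre-positive, their p-values, and a GC percent, which were not used for the results. Of its gene rows, 3047 lacked a symbol and were named from a gene ID table.

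Whole reads were recovered as counts from the deposited values (100% whole within 0.0501 normalized counts in each library; for Cre-positive 76, where 1 read is worth 1.00, by way of the authors' unrounded mean). Depth was 9815958 to 12599078 reads per library. The test was limma 3.58.1 (trended prior variance) applied to log2(normalized count + 1), filter at a mean of 5, 3 against 4 libraries, Benjamini-Hochberg adjusted over 22878 genes, threshold 0.05; 6506 genes had an unadjusted p under 0.05. A mean of logs weighs a single low library heavily: among 36 members fitted by both tools, limma gave a more negative log2 fold change than edgeR for 25 and a less negative one for 11, while the pseudocount shrinks changes of genes near 0. On the recovered reads, edgeR 4.0.16 and DESeq2 1.42.0 called 22 of 36 and 24 members lower as alternatives. Scripts were tested on simulated data. Other alternatives were pseudocounts, filters, library totals, a term for the number range and each library left out. Counting intervals are exact, at 95%.

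Members, lists and motifs were chosen with earlier results of these data known. The text gives full values for members called or with a mean of at least 50. For each pathway list it names the 4 called genes with the largest change, with values per library for only some of them. Ikzf1, Pou2f3 and Aire were to be named whatever their values. Promoters are RefSeq, the entry nearest the table's start. No protein sequence was used.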

Additional observations from a re-analysis of the deposited data

Results flagged for a closer look

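The highest of the 4 Cre-negative libraries stood far from the other three for 3 members, each time Cre-negative 48. Klk1b26 had 1125.9 normalized counts there, and the next highest Cre-negative value was 627.6. Klk1b11 had 440.3, with 327.7 next, and Klk1b27 had 176.3, with 54.5 next. Gaps of this relative size arise by chance in about 1 of 20 groups, and 53 groups of values were examined.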

How the results depend on the processing

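No called result changed direction under any alternative run; Spink4, which was not called, turned from -0.44 to 0.14 when 1 library, Cre-positive 45, was left out. With library total scaling, 583 genes were higher against 1066, the median of all genes moved to -0.30 from -0.10, and the summed kallikrein difference was -2.25 on the log2 scale against -2.04. One membrane-bound protease, 1 against 0, rose with DESeq2 and with the number-range term. With edgeR, 3 genes of the Kunitz and WAP list (with Pi15 and Pi16) and 3 proteases bound by Spink inhibitors fell, against 6 and 5, and with library total scaling 1 inhibitor rose, against 2. Counting only members free of overlaps and shared stretches, chosen after seeing the data, left 10 called. Leaving out each library in turn gave 1309 to 1740 genes lower (2084 with all libraries) and 590 to 1004 higher, 19 to 25 members called (26 with all), 1 to 3 membrane-bound proteases lower and 0 to 1 higher, and 3 to 7 genes of the Kunitz and WAP list lower and 1 to 2 higher. The lowest member count, 19, came without Cre-positive 76 and without Cre-negative 48. Among log2 fold changes of single members under the alternatives, 11 moved by more than the pooled SD between libraries and 541 did not. No paired analysis was possible because the groups share no replicate number. With 3 and 4 libraries, and few reads for the lowest members in Cre-positive libraries, sizes of change below 10 reads are imprecise. The cause of these shifts was not tested.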
